A study of Mus musculus with 65 samples.

Results

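The 60 genes described here drive or mark the cell division cycle. They were chosen by name, from the phase of the cycle in which their products act, and not by their measured values. Earlier results of these data were known when they were chosen. They comprised 9 genes of the G1/S transition (the D- and E-type cyclins, their kinases and the activating phosphatase Cdc25a), 5 cyclin-dependent kinase (CDK) inhibitors, 7 E2F factors and pocket proteins, 14 DNA replication genes, 21 genes of G2 and mitosis, the 2 Myc genes Mycn and Myc, and 2 genes linked to growth arrest, Gadd45g and Btg1. They were 60 of the 25239 genes in the table, and all 60 passed the filter on low values, a mean of at least 10 normalised reads, as did 13964 genes in all. A normalised read is a read count divided by the size factor of its library.

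Cells enter the cycle when D- and E-type cyclins activate their kinases, which phosphorylate the pocket proteins and release E2F factors to switch on the replication genes. Genes of G2 and mitosis follow later, under separate factors that bind so-called CHR and CCAAT elements. CDK inhibitors and growth arrest genes oppose this course, and in the neural tube progenitors divide at the ventricle while their postmitotic daughters become neurons.

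The study differentiated the mouse embryonic stem cell line HM1 to spinal cord progenitors. Neuromesodermal progenitors (NMPs), the common precursors of spinal cord and trunk mesoderm, were taken on day 3 without SAG. From day 3 every culture received 100 nM retinoic acid and 0, 10, 100 or 500 nM SAG, an agonist of Smoothened that stands in for Sonic hedgehog. On days 4, 5 and 6 cells were fixed, and SOX2-positive cells were sorted by intracellular transcription factor staining, from ventral to dorsal, into p3 and pMN (both at 100 and 500 nM), p2 (at 10 and 100 nM) and p0-1 (at 0 and 10 nM). RNA from these bulk populations gave 65 libraries in 25 groups, 3 for day 3, 16 for day 4, 24 for day 5 and 22 for day 6. Of these, 17 were p0-1 and 15 each were p2, pMN and p3. The labels describe triplicates from separate differentiations of the 1 line, and 17 groups held 3 libraries, 6 held 2 and 2 held 1. All groups shared this line and all those after day 3 shared the retinoic acid, and cells without SOX2 were left out by the sort on days 4 to 6.

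The libraries held 7615114 to 13484815 reads, and 9718 to 15963 genes had at least 1 read. One library stood apart, the single one of p3 at 100 nM on day 4, with 9718 genes. In it 7 of the 60 cell cycle genes had at most 3 reads and 5 had 0, against 0 to 2 with at most 3 reads in the other 15 day 4 libraries. Among the 13964 tested genes, 35.2% had at most 3 reads in it. Results that rest on day 4 are therefore also given without this library where that changed a call or moved a value. The reads carry no molecular identifiers, so limits from counts cover counting error only. Neuromesodermal markers (7 genes) summed to 336 to 645 RPM (reads scaled to the same total in every library) on day 3 and to 0 to 54.7 on day 4. Markers of neural progenitors (6 genes) summed to 203 to 293 RPM on day 3, to 402 to 973 on day 4 and to 719 to 1345 on day 6. The 10 markers of postmitotic neurons summed to 63.8 to 229 RPM on day 4, to 48.7 to 356 on day 5 and to 361 to 753 on day 6. Of these, Dcx was at 0 in 13 of the 16 day 4 libraries and Syt1 in all 16, and 6 of the 10 were called higher on day 6 than on day 4. Over these days 0 were called lower and 2 had a negative sign, while 2 were called lower on day 5 than on day 4. Of the 6 progenitor markers 2 were called higher and 1 lower on day 6 than on day 4. The sorted factors followed the labels, with Nkx2-2 at 121 to 426 normalised reads in p3 on days 5 and 6 and at most 98.1 in the other cell types, and Olig2 at 1368 to 6214 in pMN and at most 1741 elsewhere. The sources used here do not state whether reads were counted by strand. Of the 60 genes, 8 (Ccnd1, Ccnd3, Ccne2, E2f8, Gins2, Ccna2, Cdc20 and Kif20a) share exon sequence with a gene on the other strand, as do the markers Shh and Nkx2-2, and reads of such pairs cannot be told apart.

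Promoter sequences are shown because these classes differ in the elements they hold. Of the 60 genes, 46 matched a promoter in RefSeq (build GRCm38.p6, 250 bases before to 50 after the start of the gene), 40 with 1 promoter and 6 with 2. Both strands were searched for the CHR element (TTTGAA or TTCGAA), for CCAAT, and for E2F sites spelled TTTCCCGC, TTTGGCGC, TTTCGCGC, TTTGCCGC, TTCCCGCC or TTGGCGCC, some of which overlap each other. The CHR letters were present in 13 of the 16 promoters of G2 and mitosis genes (81.2%), against 21.7% of 27025 genes. CCAAT was present in 15 of these 16 (93.8%) and in 41.1% of all genes, and both elements together in 13 of 16 against 8.61% of all genes. Replication genes had an E2F site in 7 of 11 promoters (63.6%), G2 and mitosis genes in 2 of 16 (12.5%) and all genes in 5.11%. The 2 growth arrest promoters held CCAAT but neither CHR nor E2F letters. A match is a run of letters and not a binding site. The promoters below were chosen as those of genes whose levels differed between days, from both classes and from the growth arrest genes, with the elements in capitals. They lie at chr9:70421505-70421804 (minus strand) for Ccnb2, the cyclin of mitotic CDK1, at chr2:131186698-131186997 (plus strand) for Cdc25b, the phosphatase that activates CDK1, at chr7:122159185-122159484 (plus strand) for the mitotic kinase gene Plk1, at chr1:20820263-20820562 (minus strand) for Mcm3, a subunit of the replicative helicase, and at chr13:51846425-51846724 (plus strand) for Gadd45g.
Ccnb2: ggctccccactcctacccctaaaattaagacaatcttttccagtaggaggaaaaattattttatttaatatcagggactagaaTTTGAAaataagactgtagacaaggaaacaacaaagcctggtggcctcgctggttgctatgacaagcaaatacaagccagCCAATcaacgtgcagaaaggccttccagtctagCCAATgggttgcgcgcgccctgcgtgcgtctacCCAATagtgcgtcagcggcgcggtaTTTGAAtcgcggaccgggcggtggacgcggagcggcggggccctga
Cdc25b: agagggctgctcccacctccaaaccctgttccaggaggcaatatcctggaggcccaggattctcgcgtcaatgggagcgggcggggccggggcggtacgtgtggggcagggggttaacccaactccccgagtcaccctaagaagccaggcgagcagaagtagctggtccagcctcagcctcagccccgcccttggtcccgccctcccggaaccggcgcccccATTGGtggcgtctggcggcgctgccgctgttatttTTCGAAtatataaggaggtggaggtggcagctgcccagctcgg
Plk1: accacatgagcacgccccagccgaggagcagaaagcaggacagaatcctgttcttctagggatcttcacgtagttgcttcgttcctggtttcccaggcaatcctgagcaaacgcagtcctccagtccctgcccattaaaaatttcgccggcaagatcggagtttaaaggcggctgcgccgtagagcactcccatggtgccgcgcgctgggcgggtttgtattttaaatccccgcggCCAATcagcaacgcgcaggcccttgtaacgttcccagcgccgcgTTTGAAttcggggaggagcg
Mcm3: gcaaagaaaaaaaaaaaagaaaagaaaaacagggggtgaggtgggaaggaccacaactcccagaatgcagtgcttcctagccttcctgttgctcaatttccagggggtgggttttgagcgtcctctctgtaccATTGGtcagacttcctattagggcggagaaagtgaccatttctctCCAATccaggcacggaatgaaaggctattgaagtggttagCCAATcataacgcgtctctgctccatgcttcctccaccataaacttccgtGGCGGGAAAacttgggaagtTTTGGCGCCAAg
Gadd45g: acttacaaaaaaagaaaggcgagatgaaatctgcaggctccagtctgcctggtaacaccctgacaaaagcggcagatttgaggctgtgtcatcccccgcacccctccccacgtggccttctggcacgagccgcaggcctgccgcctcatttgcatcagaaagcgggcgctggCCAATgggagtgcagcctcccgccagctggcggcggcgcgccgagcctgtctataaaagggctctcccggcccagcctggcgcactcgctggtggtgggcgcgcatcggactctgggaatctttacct
The capitals mark TTTGAA at 167 bases upstream and 5 bases downstream of the Ccnb2 start, with CCAAT at 87, 54 and 21 bases upstream. Cdc25b carries TTCGAA at 8 bases downstream and a reverse-strand CCAAT, read as ATTGG, at 28 bases upstream. Plk1 carries TTTGAA at 31 bases downstream and CCAAT at 14 bases upstream. In Mcm3 the capitals mark a reverse-strand CCAAT, read as ATTGG, at 117 bases upstream and CCAAT at 72 and 32 bases upstream. They also mark E2F letters from 19 and 39 bases downstream. In Gadd45g they mark a single CCAAT at 78 bases upstream.

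The genes differed widely in level. Per kilobase of transcript, and over all 65 libraries, Cdk4, the kinase of the D-type cyclins, had the highest median at 3816 normalised reads, before Ccnd2 at 2867, Gadd45g at 2476, Rrm2 (ribonucleotide reductase) at 2353 and Pcna, the sliding clamp of DNA polymerase, at 2087. At the low end were Cdk6 at 75.4, Ccne2 at 70.0, E2f2 at 67.6, the repressor E2f8 at 34.8 and, last of the 60, the CDK inhibitor gene Cdkn2c. Reads were present in every library for 50 of the 60 genes, and 40 of 3900 gene and library pairs were at 0. Cdkn2c accounted for 21 of these zeros and E2f8 for 7.

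From NMPs to day 4 progenitors most of the cell cycle genes had a positive sign, while Cdkn1a and Gadd45g fell. A gene was called at an adjusted p below 0.01 (limma, Benjamini-Hochberg over all tested genes) and a change of more than 2-fold. By this rule 6 of the 60 genes were called, 4 higher and 2 lower on day 4, against 3.49% of all tested genes. The sign of the change was positive for 46 of the 60, with a median log2 change of 0.43, while 33% of all tested genes were positive and their median was -0.40. Without the day 4 library of p3 at 100 nM the same 6 genes were called, against 3.09% of all genes. In bulk libraries a change in the share of cells in a phase and a change in RNA per cell cannot be told apart.

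Ccnd2 encodes cyclin D2, a D-type cyclin of neural progenitors (chr6:127125709-127151048, minus strand, mm10). Its 3 day 3 libraries held 5904, 4133 and 3249 normalised reads. The 16 day 4 libraries ran from 9020 to 30689 with a median of 20724, all above every day 3 library. The log2 change was 2.22 (SE 0.16, adjusted p 5.42e-16, limma), and the ratio of the means was 4.53. Cdkn1a, which encodes the CDK inhibitor p21 (chr17:29090979-29100722, plus strand), went the other way. It held 8975, 9374 and 11735 normalised reads on day 3 and 2136 to 6938 on day 4 (median 3293), again without overlap. Its log2 change was -1.62 (SE 0.30, adjusted p 0.000148). Gadd45g, a stress-inducible gene whose product slows the cycle (chr13:51846675-51848474, plus strand), fell as well. The day 3 libraries held 1426, 819 and 2574 normalised reads of Gadd45g and the day 4 libraries 0 to 566, with a median of 341. Every day 4 library lay below every day 3 library, and the ratio of the means was 4.83. In all, 11 of the 60 genes did not overlap between day 3 and day 4, against 5.96% of all tested genes. The log2 change was -3.17 (SE 0.34, adjusted p 6.63e-10), and -2.13 (adjusted p 1.11e-05) without the day 4 library at 0.

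Among genes of the later phases, Cenpf and Tpx2, which act at the kinetochore and the spindle, were called higher on day 4. Cenpf held 1989 to 2137 normalised reads on day 3 and 3548 to 7769 on day 4, a log2 change of 1.21 (SE 0.19, adjusted p 5.79e-06). Tpx2 held 767 to 857 and 1075 to 3998, a log2 change of 1.31 (SE 0.28, adjusted p 0.00113). Neither gene overlapped between the days. The pocket protein gene Rb1 held 107 to 258 normalised reads on day 3 and 297 to 1516 on day 4, also without overlap (log2 change 1.73, SE 0.45, adjusted p 0.00918). The call for Rb1 was lost in 11 of 19 fits that each left out 1 library, with values from 1.33 to 1.97. It was also lost with the replicate number as a block, a mean of at least 100 as the filter, the number of genes detected as a covariate, only the groups compared in the model, and edgeR. That for Tpx2 was lost without replicate 1 or replicate 2 of the NMPs (1.17 to 1.38 over the 19 fits).

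At the same adjusted p without a minimum fold, a rule added after the data were seen, 8 of the 60 genes passed, against 3.75% of all genes. The additional 2 were Mcm7, a helicase subunit (log2 change 0.94, adjusted p 4.64e-05), and Top2a, the topoisomerase of dividing cells (0.86, adjusted p 0.000574). Of the replication genes 12 of 14 had a positive sign, with a median of 0.45, and of the G2 and mitosis genes 20 of 21, with a median of 0.49. On the lists of further genes of these 2 classes the shares and medians were lower, at 26 of 42 replication genes (median 0.15) and 39 of 57 G2 and mitosis genes (median 0.28). Of the E2F factors and pocket proteins 4 of 7 had a negative sign (median -0.86), and of the G1/S genes 5 of 9 a positive one (median 0.02). Among further genes, 8 of 26 regulators and checkpoint genes (median -0.18) and 3 of 12 growth arrest genes (median -0.40) were positive. Summed over the class, the G2 and mitosis genes took 3090 ± 251 RPM on day 3 (SD, n = 3) and 5147 ± 553 on day 4 (n = 16). The replication genes took 2373 ± 81.5 and 3570 ± 466. CDK inhibitors took 999 ± 165 on day 3 and 496 ± 141 on day 4. Most of these reads were of Cdkn1a, which had means of 10028 normalised reads on day 3 and 3631 on day 4, while 3 of the 5 inhibitors had a positive sign (median log2 change 0.90). Without the library that stood apart the day 4 sums were 5071 ± 479 RPM for G2 and mitosis, 3539 ± 466 for replication and 484 ± 137 for the inhibitors (n = 15). Day 3 was represented by 3 libraries of 1 group, in which a median of 15429 genes had a read, against 13174 on day 4. The part of this difference in the change of the cell cycle genes was not tested.

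Between day 4 and day 5 Gadd45g and Cdc25b rose. In all, 5 of the 60 genes were called, all higher on day 5, against 4.3% of all genes. The median log2 change was -0.03 for the 60 genes and 0.01 for all genes. Gadd45g held 0 to 566 normalised reads on day 4 and 560 to 7737 on day 5 (median 2808), a log2 change of 4.11 (SE 0.18, adjusted p 6.59e-23). Cdc25b (chr2:131186948-131198511, plus strand) held 18.2 to 704 on day 4 and 442 to 1723 on day 5, with overlap, and a log2 change of 1.61 (adjusted p 2.64e-06). E2f1, E2f2 and Cdc25c, an activator of CDK1, were called at log2 changes of 1.72, 2.16 and 1.20. These last 3 calls rested on the day 4 library that stood apart, in which E2f1 and E2f2 had 0 reads and Cdc25c 1. Without this library the values were 0.49 for E2f1 (adjusted p 0.129), 1.29 for E2f2 (adjusted p 0.0914) and 0.08 for Cdc25c (adjusted p 0.879). Gadd45g and Cdc25b stayed called without it, at 3.07 and 1.60, while 2.43% of all genes were called. Past adjusted p at any fold were 9 of the 60 genes, against 6.59% of all genes. The other 4 were Cdk6 (0.87), Cenpe, a kinetochore motor (0.47), Ccne1, cyclin E1 (-0.90), and Mcm4, a helicase subunit (-0.64). Of these 4, Cdk6 alone stayed past the threshold without the library (0.86, adjusted p 0.00943).

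From day 5 to day 6 Ccnd2 fell and Gadd45g rose, each by less than 2-fold. By the rule with the minimum fold, 0 of the 60 were called with limma (0.852% of all genes), DESeq2 (6.44%) or edgeR (0.673%). An unadjusted p below 0.05 was found for 13 (21.7%), against 16.3% of all genes. At an adjusted p below 0.05 (limma) without a fold minimum 8 of the 60 passed, against 3.95% of all genes. At any fold 2 of the 60 passed the adjusted p, against 1.68% of all genes. Ccnd2 fell by 0.46 on the log2 scale (adjusted p 3.15e-05), and Gadd45g rose by 0.69 (adjusted p 0.0053).

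Over the whole course from day 4 to day 6, Gadd45g and Cdc25b rose while Ccnd2 and a few replication and mitosis genes fell by less than 2-fold. Of the 60 genes 6 were called, all higher on day 6, against 8.87% of all genes. At any fold 17 passed the adjusted p, 8 higher and 9 lower, against 13.7% of all genes. The median log2 change was -0.12 for the 60 genes and 0.02 for all genes. Without the day 4 library of p3 at 100 nM, 3 of the 60 were called (6.59% of all genes) and 9 passed at any fold (10.8% of all genes).

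**Figure D1:**
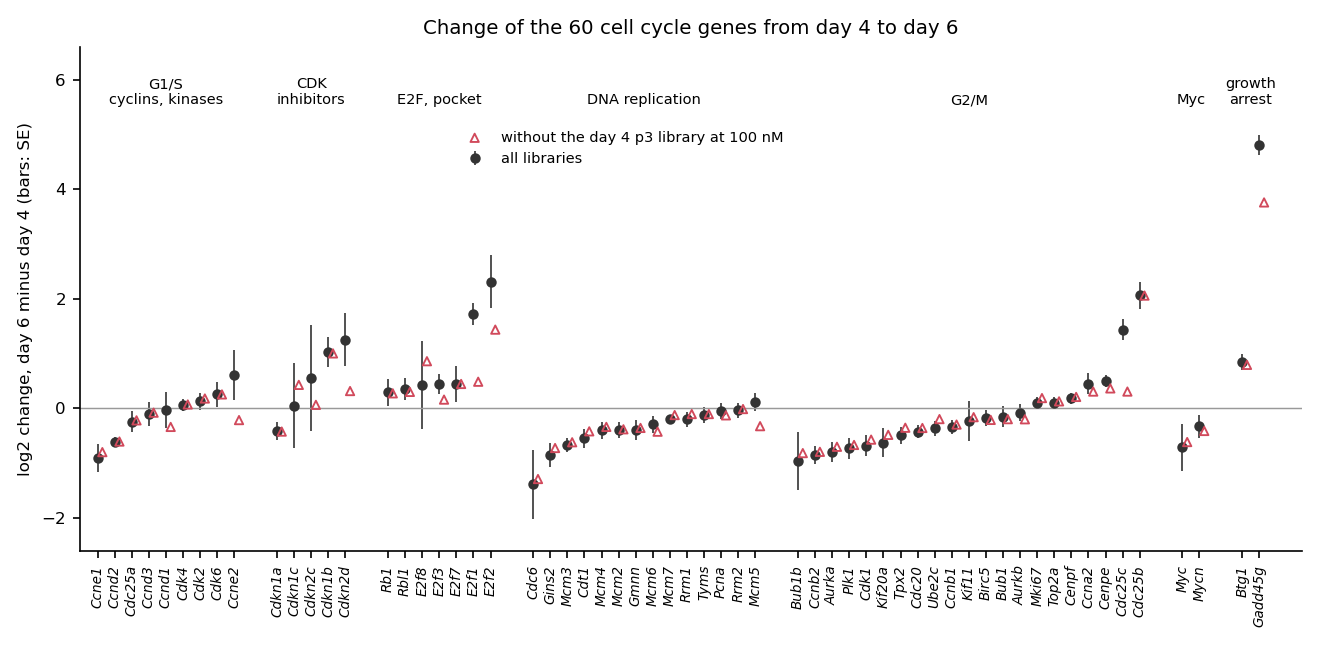
Log2 change from day 4 to day 6 (vertical axis, bars are SE) of each of the 60 cell cycle genes, grouped by role, from limma on log2(value + 1), with all libraries and without the day 4 library of p3 at 100 nM. Gadd45g stands highest at 4.81, and 13 of the 14 replication genes lie below 0.

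Gadd45g showed the largest change of the 60. It held 0 to 566 normalised reads on day 4 (median 341) and 2114 to 10682 on day 6 (median 4424), so that every day 6 library lay above every day 4 library. Ranges without overlap between these days were found for 2 of the 60 genes and for 0.408% of all tested genes. The log2 change was 4.81 (SE 0.19, adjusted p 1.84e-25), and 3.76 (adjusted p 9.3e-21) without the library in which it had 0 reads. The ratio of the means was 14.3, and 13.4 without that library. Compared with day 3, where it held 819 to 2574, Gadd45g thus passed through a low on day 4. Its fellow growth arrest gene Btg1, which encodes an antiproliferative protein, held 672 to 2601 on day 4 and 1328 to 3923 on day 6. The ranges of Btg1 overlapped, and its log2 change was 0.84 (adjusted p 2.93e-05), under the minimum fold. Cdc25b was the other of these 2 genes, at 18.2 to 704 on day 4 and 729 to 2516 on day 6. Its log2 change was 2.07 (SE 0.25, adjusted p 7.19e-09), and 2.06 (adjusted p 1.17e-08) without the library that stood apart.

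**Figure D2:**
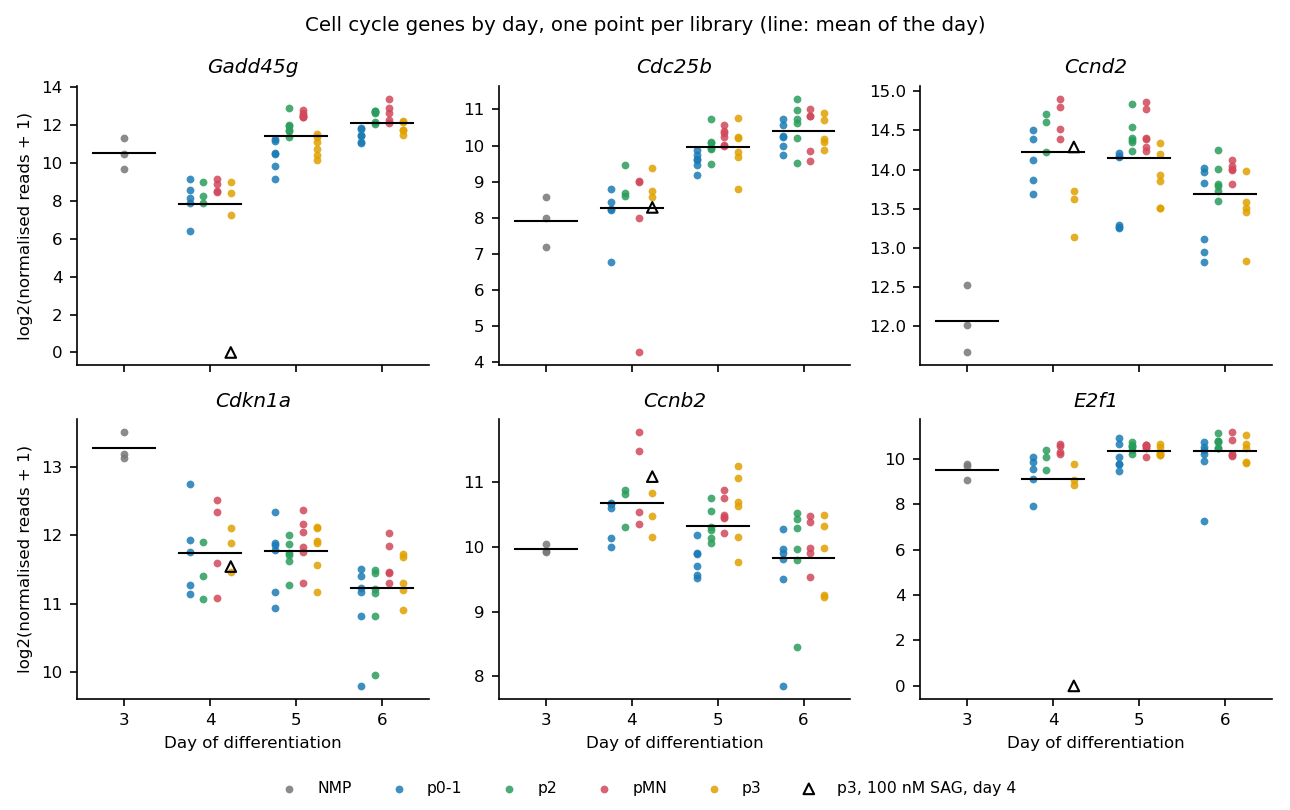
Log2(normalised reads + 1) of Gadd45g, Cdc25b, Ccnd2, Cdkn1a, Ccnb2 and E2f1 in each library by day, coloured by cell type. A short horizontal line marks the mean of each day, and a triangle the single day 4 library of p3 at 100 nM, which the day 4 mean includes. Gadd45g was at 0 in that library and at most 566 in the other day 4 libraries, against at least 2114 on day 6.

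CDK inhibitors did not move together. Cdkn1b, which encodes p27, held 33.0 to 323 normalised reads on day 4 and 83.6 to 729 on day 6, with overlap. It was called at a log2 change of 1.02 (SE 0.27, adjusted p 0.00439), close to the minimum fold, and the call was lost in 11 of 38 fits that left out 1 library (0.90 to 1.15). It was also lost with a pseudocount of 10, quantile normalisation, the number of genes detected as a covariate, and without the 4 libraries with the fewest genes. Cdkn1a held 2136 to 6938 on day 4 and 885 to 4198 on day 6 (log2 change -0.41, adjusted p 0.0654). Cdkn1c, which encodes p57, gave a log2 change of 0.05 (adjusted p 0.974). Its level also differed by replicate number, and replicate numbers were spread unevenly over these days. Cdkn2c gave 0.56 and Cdkn2d, which encodes p19, gave 1.25 (adjusted p 0.0531), and neither passed the test. Without the library that stood apart the values were 0.43 for Cdkn1c (adjusted p 0.767), 0.06 for Cdkn2c (adjusted p 0.978) and 0.31 for Cdkn2d (adjusted p 0.719). As a class the inhibitors took 496 ± 141 RPM on day 4 and 434 ± 81.6 on day 6 (SD, n = 16 and 22). The growth arrest genes took 161 ± 51.6 and 715 ± 249.

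Among G1/S genes, Ccnd2 fell from 9020 to 30689 normalised reads on day 4 (median 20724) to 7212 to 19534 on day 6 (median 14397). The ranges overlapped, and the log2 change was -0.61 (adjusted p 2.56e-07). Ccne1 passed the adjusted p at -0.91 (0.00515), but not without the day 4 library that stood apart (-0.80, adjusted p 0.0185). Ccnd1, the other D-type cyclin with a role in Shh-responsive progenitors, gave -0.03 (adjusted p 0.965), with ranges of 46.0 to 767 on day 4 and 60.8 to 1419 on day 6. The sign of this value turned under other tools, and without the library that stood apart it was -0.34 (adjusted p 0.529). Mycn gave -0.33 and Myc -0.71, without passing the test.

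The 7 E2F factors and pocket proteins all had a positive sign from day 4 to day 6, with a median of 0.44 both with and without the library that stood apart. E2f1 and E2f2 were called at 1.72 (SE 0.20, adjusted p 4.2e-09) and 2.31 (SE 0.48, adjusted p 0.000281), and without that library gave 0.48 (adjusted p 0.0876) and 1.44 (adjusted p 0.0318). E2f1 held 0 to 1606 normalised reads on day 4 and 151 to 2303 on day 6. No member of this class was called without that library.

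Replication genes had a negative sign for 13 of 14, with a median log2 change of -0.34, and for 14 of 14 with a median of -0.35 without the library. The median over all genes was 0.02, and 51% of all genes were positive. Of the 42 further replication genes 24 had a negative sign, with a median of -0.06. Mcm3 held 2191 to 4999 normalised reads on day 4 and 903 to 3435 on day 6, with overlap. Its log2 change was -0.68 (adjusted p 8.45e-05), and -0.62 without the library, still past the adjusted p. Gins2, which links the helicase to the polymerase, gave -0.85 (adjusted p 0.00344), and -0.73 (adjusted p 0.017) without the library. Cdc6, which loads the helicase, held 553 to 2099 on day 4 and 0 to 1768 on day 6, a change of -1.39 with a wide error (SE 0.63, adjusted p 0.113). Pcna held 1092 to 4035 on day 4 and 814 to 4238 on day 6, a change of -0.05 (adjusted p 0.867).

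Of the 21 G2 and mitosis genes 14 had a negative sign, with a median of -0.23, and of the 57 further genes of this class 32, with a median of -0.03. Ccnb2 held 1026 to 3509 normalised reads on day 4 and 230 to 1466 on day 6 (log2 change -0.85, adjusted p 0.000124). The mitotic kinase genes Aurka and Plk1 gave -0.81 (adjusted p 0.000623) and -0.73 (adjusted p 0.00299). All 3 ranges overlapped, and all 3 stayed past the adjusted p without the library, at -0.80, -0.70 and -0.67. Cdk1, the mitotic kinase itself, gave -0.68 (adjusted p 0.00494), and Cdc20, an activator of the anaphase-promoting complex, -0.43 (adjusted p 0.00551). Without the library these stood at -0.57 (adjusted p 0.0242) and -0.36 (adjusted p 0.0272). Against this direction Cenpe gave 0.50 (adjusted p 0.00115), and 0.36 (adjusted p 0.0239) without the library. Cdc25c was called at 1.43 (SE 0.19, adjusted p 9.9e-08) and gave 0.30 (adjusted p 0.299) without the library. Mki67, the gene of the proliferation antigen Ki-67, held 3888 to 8141 on day 4 and 3706 to 8735 on day 6, a change of 0.10 (adjusted p 0.559). Over the same days the summed markers of postmitotic neurons went from 63.8 to 229 to 361 to 753 RPM, without overlap. The part of these cells in the changes was not tested.

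Gadd45g was the only one of the 60 genes called from day 4 to day 6 in each of the 4 cell types. Its log2 change was 3.54 in p0-1, 3.96 in p2, 3.96 in pMN and 7.77 in p3, and 3.66 (adjusted p 1.94e-08) in p3 without the library at 0. In normalised reads p0-1 went from 84.9 to 559 on day 4 to 2114 to 3707 on day 6, and pMN from 347 to 566 to 4351 to 10682. In p2 the day 4 libraries held 233 to 514 and the day 6 libraries 4272 to 6813. Cdc25b was called in p0-1 (2.13, adjusted p 0.00169) and pMN (2.93, adjusted p 6.06e-05) and gave 1.51 (adjusted p 0.119) in p2 and 1.70 (adjusted p 0.0213) in p3. In every cell type the lowest day 6 value of Cdc25b lay above the highest day 4 value. With these small groups 4.63% (p0-1), 10.1% (p2), 8.67% (pMN) and 5.76% (p3) of all genes did not overlap. The call of Cdc25b in p0-1 was lost without replicate 2 or 3 at 0 nM or replicate 3 at 10 nM on day 4. In pMN its value was 1.74 without replicate 2 and 4.12 without replicate 3 at 500 nM on day 4, and both calls were lost with only the groups compared in the model. In p0-1 2 of the 60 genes were called (1.42% of all genes), in p2 1 (1.08%), in pMN 2 (1.9%) and in p3 6 (7.78%).

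The 6 calls in p3 were Gadd45g, E2f1 (5.67), E2f2 (6.57), Cdkn2d (4.47), Cdc25c (4.45) and Mcm5, a helicase subunit (1.97). Those of E2f2, Cdkn2d and Mcm5 were lost with only the groups compared in the model. In the 4 day 4 libraries of p3, E2f1 held 0 to 879 normalised reads, Cdc25c 0.732 to 1820 and Mcm5 259 to 3136, with the lowest value of each in the library at 100 nM. Without this library 2 stayed called, Gadd45g and E2f2 (4.72, adjusted p 0.00431), against 1.06% of all genes. E2f2 was low in other day 4 libraries of p3 as well, at 0, 5.49 and 341 normalised reads in the 3 at 500 nM. A fitted fold with a library at 0 depends on the pseudocount and is no bound. E2f1 then gave 1.06, Cdkn2d 0.51 and Mcm5 0.59, with adjusted p of 0.202, 0.894 and 0.475, and Cdc25c turned to -0.27 (adjusted p 0.84).

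Whether the course differed between cell types was tested on the difference itself. For p3 against the mean of the other types, 5 of the 60 genes were called, against 4.1% of all genes. For p0-1, p2 and pMN 0 were called, against 0.0286%, 0% and 0.0215% of all genes, with 7, 8 and 8 at an unadjusted p below 0.05 (6.83%, 8.5% and 7.37% of all genes). DESeq2 called 2 in each of these (4.1%, 4.13% and 4.68% of all genes) and edgeR 0, 0 and 1. Without the day 4 library of p3 at 100 nM none of the 5 stayed called, and the count over all genes went from 573 to 3.

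On days 5 and 6, Gadd45g, Cdk6, Ccne2 and Mycn were called between cell types. Gadd45g was highest in pMN, at 4351 to 10682 normalised reads (median 5948, mean 6334 ± 1709.7, SD, n = 11). It held 2674 to 7737 in p2 (5029 ± 1724, n = 12), 1137 to 4687 in p3 (2792 ± 1174, n = 11) and 560 to 3707 in p0-1 (2176 ± 963, n = 12). All 11 pMN libraries lay above all 12 p0-1 libraries, and the ratio of the means was 2.91. This held for 1 of the 60 genes and, in either direction, for 0.193% of all genes. The log2 difference of pMN from p0-1 was 1.71 (adjusted p 6.02e-07), that of p2 from p0-1 was 1.30 (adjusted p 0.000235), and that of p3 from pMN was -1.25 (adjusted p 0.000734). The order of Gadd45g from pMN through p2 to p3 and p0-1 had no call between neighbours pMN and p2, p2 and p3, or p3 and p0-1.

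**Figure D3:**
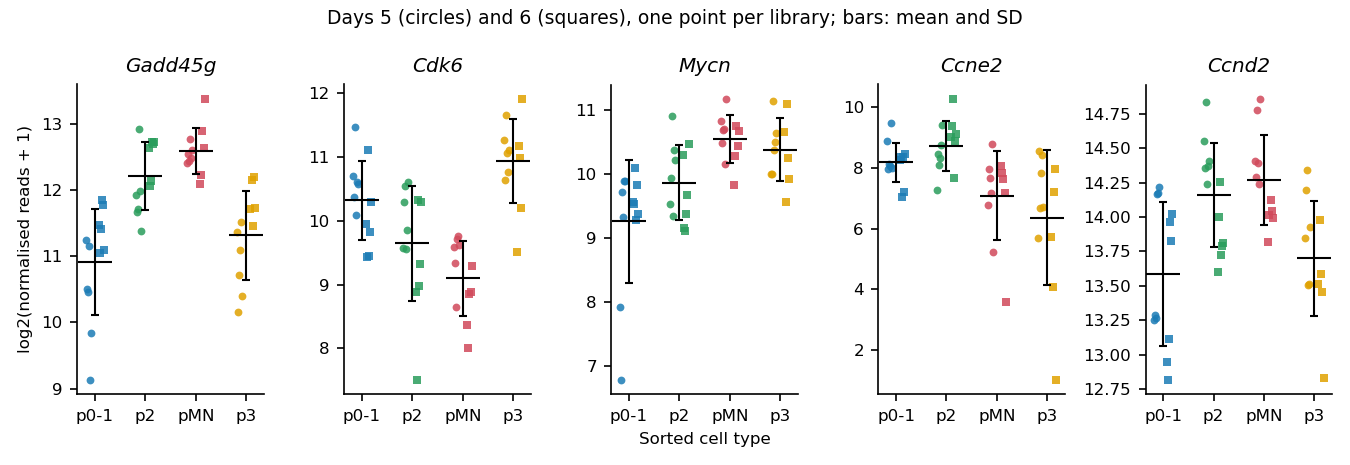
Log2(normalised reads + 1) of Gadd45g, Cdk6, Mycn, Ccne2 and Ccnd2 in each library by cell type on day 5 (circles) and day 6 (squares), with the mean and SD of each type on this scale and an axis of its own for each gene. Gadd45g is highest in pMN, above all 12 p0-1 libraries, and Cdk6 is highest in p3 and lowest in pMN.

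Cdk6, a kinase partner of the D-type cyclins (chr5:3343893-3531005, plus strand), showed another order. It held 730 to 3861 normalised reads in p3 (2132 ± 876, SD, n = 11), 691 to 2835 in p0-1 (1393 ± 629, n = 12), 181 to 1552 in p2 (922 ± 440, n = 12) and 256 to 869 in pMN (586 ± 214, n = 11). The ranges of p3 and pMN overlapped. The log2 difference of p3 was 1.85 from pMN (adjusted p 2.93e-05) and 1.30 from p2 (adjusted p 0.00256), and that of pMN from p0-1 was -1.22 (adjusted p 0.00595). The difference of p3 from p2 lost its call when the day 6 p3 library of replicate 3 at 500 nM was left out (1.08), and that of pMN from p0-1 lost it in 13 of 23 fits that left out 1 library (-1.32 to -1.11). With only the groups compared in the model, the difference of p3 from p2 lost its call as well.

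Mycn, a Myc family gene that acts downstream of Shh in neural precursors (chr12:12936093-12941836, minus strand), held 906 to 2324 normalised reads in pMN (1544 ± 381) and 110 to 1096 in p0-1 (711 ± 289), with p2 at 1011 ± 425 and p3 at 1406 ± 484 (SD, n = 11 in pMN and p3, 12 in p2 and p0-1). Mycn in pMN differed from p0-1 by 1.28 (adjusted p 0.00111), and in p3 by 1.09 (adjusted p 0.00572). The call of p3 was lost in 13 of 23 fits that left out 1 library (0.92 to 1.28). It was also lost with edgeR and with only the groups compared in the model. Ccne2, the gene of cyclin E2 (chr4:11191351-11204779, plus strand, sharing exon sequence with Ints8 on the other strand), held 1.02 to 376 in p3 and 152 to 1240 in p2. The log2 difference of p3 from p2 was -2.52 (adjusted p 0.00413). The call was lost when that same day 6 p3 library was left out (-1.65), with edgeR and with only the groups compared in the model.

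Ccnd2 differed between cell types by less than 2-fold. It held 14421 to 29751 normalised reads in pMN, 12421 to 29287 in p2, 7283 to 20716 in p3 and 7212 to 19036 in p0-1. The log2 difference was 0.66 for pMN from p0-1 (adjusted p 1.95e-05), 0.57 for p2 from p0-1 (adjusted p 0.000399), -0.60 for p3 from pMN (adjusted p 0.000377) and -0.51 for p3 from p2 (adjusted p 0.00156). All these ranges overlapped. Over the SAG concentrations sorted, the pMN and p2 libraries were thus the higher pair, and p3 and p0-1 the lower. Only p0-1 included 0 nM SAG, and within p0-1 Ccnd2 was higher at 10 than at 0 nM (log2 difference 0.95). The part of SAG concentration in these differences was not tested.

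In all, 2 of the 60 genes were called for p3 against pMN (0.695% of all genes), 2 for p3 against p2 (1.27%), 1 for p3 against p0-1 (1.43%), 3 for pMN against p0-1 (0.96%) and 1 for p2 against p0-1 (0.322%). At any fold the counts were 3 (0.795% of all genes), 3 (1.79%), 1 (1.86%), 4 (1.14%) and 2 (0.351%). Between pMN and p2 limma called 0 of the 60 (0.107% of all genes), and 0 at any fold (0.129%). There 9 had an unadjusted p below 0.05, against 10.6% of all genes, DESeq2 called 1 (4.2% of all genes) and edgeR 0. The 3 genes with the lowest p were Pcna (-0.59, adjusted p 0.148), Ccne2 (-1.79, adjusted p 0.164) and Mki67 (-0.37, adjusted p 0.21). Floor plate markers moved with p3. On days 5 and 6 Foxa2 held 232 to 3100 normalised reads in p3 and at most 368 in the other types, and Shh held 0.880 to 1335 in p3 and at most 33.2 in the others. Both were called higher in p3 than in each other type. These markers alone do not show that floor plate cells were present. The paper reports from lineage tracing in embryos that p3 cells have themselves expressed Foxa2. It also compared its spinal cord cultures with floor plate cultures and found little floor plate marker expression in the former. Whether the p3 libraries held floor plate cells, and any part of such cells in the differences of p3, was not tested here.

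SAG concentration was compared within each cell type over days 5 and 6. In p0-1, Ccnd2 was higher at 10 nM than at 0 nM. On day 5 it held 9773, 9995 and 9872 normalised reads at 0 nM and 18375, 18505 and 19036 at 10 nM. On day 6 it held 7885, 7212 and 8846 at 0 nM and 16002, 14507 and 16604 at 10 nM. On both days every library at 10 nM lay above every library at 0 nM. Over both days together 1 of the 60 genes, Ccnd2, did not overlap between these concentrations, against 0.251% of all genes. The ratio of the means was 1.92, and the log2 difference 0.95 (SE 0.14, adjusted p 0.000104), under the minimum fold. Ccnd2 was the 1 of the 60 genes that passed the adjusted p at any fold, against 0.0215% of all genes, and by the rule with the minimum fold 0 of the 60 were called, against 0.0143%. On day 4 the ranges overlapped, with 13238 and 17901 at 0 nM and 23223, 14964 and 21451 at 10 nM.

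**Figure D4:**
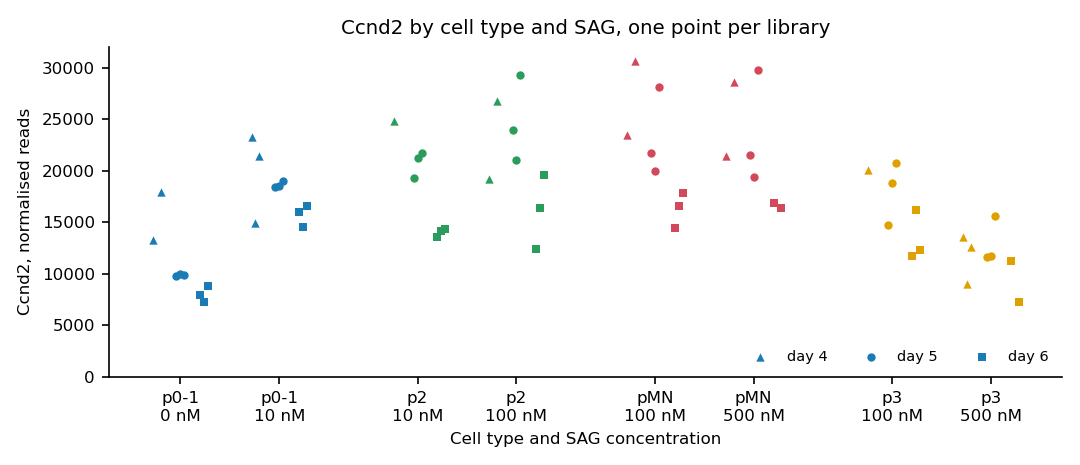
Normalised reads of Ccnd2 in each library by cell type and SAG concentration on days 4, 5 and 6. In p0-1 the libraries at 10 nM lie above those at 0 nM on days 5 and 6, and the points overlap on day 4.

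The direction for Ccnd2 was not the same across the gradient. In p2 the log2 difference of 100 from 10 nM was 0.21 (adjusted p 0.751), in pMN that of 500 from 100 nM was 0.02 (adjusted p 1), and in p3 it was -0.51 (SE 0.15, adjusted p 0.168). In p3 Ccnd2 held 14758, 18812 and 20716 normalised reads at 100 nM and 11657, 11677 and 15597 at 500 nM on day 5. On day 6 it held 11683, 16152 and 12273 at 100 nM and 11224 and 7283 at 500 nM. Whether the effect of SAG on Ccnd2 differed between the cell types was not tested, and the concentrations compared differ between them.

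The other genes gave no call for SAG in any cell type. In p2 the background was 0.0358% of all genes, in pMN 0% and in p3 0.0286%, and the counts of the 60 genes at an unadjusted p below 0.05 were 3 in p0-1, 7 in p2, 3 in pMN and 7 in p3. Of all genes, 4.88%, 8.18%, 4.7% and 11.7% had such a p. DESeq2 called 1 in pMN (3.17% of all genes) and 0 elsewhere, and edgeR 0 in every type. The lowest p after Ccnd2 in p0-1 were those of Ccna2, cyclin A2 (0.70, adjusted p 0.969), and Top2a (0.33, adjusted p 0.999). In p2 they were those of the spindle motor gene Kif11 (-1.50, adjusted p 0.462), the mitotic kinase gene Aurkb (0.60, adjusted p 0.485) and Btg1 (-0.56, adjusted p 0.545). In pMN they were those of Cdkn2c (-5.00, adjusted p 0.88), the mitotic cyclin gene Ccnb1 (-0.54, adjusted p 1) and Pcna (-0.54, adjusted p 1). Cdkn2c had a median of 29.2 normalised reads and was at 0 in 21 of the 65 libraries, so its value depends on the pseudocount. In p3 Ube2c, an enzyme of mitotic protein turnover, gave -0.82 (adjusted p 0.175) and Mcm7 -0.43 (adjusted p 0.272).

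Some of the 60 genes also differed by replicate number, and 1 of them, a CDK inhibitor gene, was called. Cdkn1c (chr7:143458339-143461050, minus strand) was highest in replicate 3 in 16 of the 17 groups with 3 libraries, and lowest in replicate 2 in 16 of 17. It held 590 ± 377 normalised reads in replicate 1 (SD, n = 19), 288 ± 257 in replicate 2 (n = 21) and 1267 ± 760 in replicate 3 (n = 25). In a model with the replicate number as a term, replicate 3 exceeded replicate 2 by 3.18 on the log2 scale (SE 0.50, adjusted p 0.000139), a value that depends on the pseudocount because some replicate 2 libraries were at 0. This gene was noticed in the data before the term was tested. Cdkn1a was lowest in replicate 3 in 14 of 17 groups (log2 difference of replicate 3 from 1 of -0.67, adjusted p 8.02e-05), and Mcm5 in 15 of 17 (-0.66, adjusted p 0.000553). By the rule with the minimum fold, 1 of the 60 genes was called between replicates 3 and 2 (0.208% of all genes) and 0 between 3 and 1 (0.215%) or 2 and 1 (0%). Unadjusted p below 0.05 were found for 16 of the 60 between 3 and 1 (15% of all genes) and for 11 between 2 and 1 (10.3% of all genes), and DESeq2 and edgeR were not run for these terms. The labels do not say what the replicate numbers share.

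**Figure D5:**
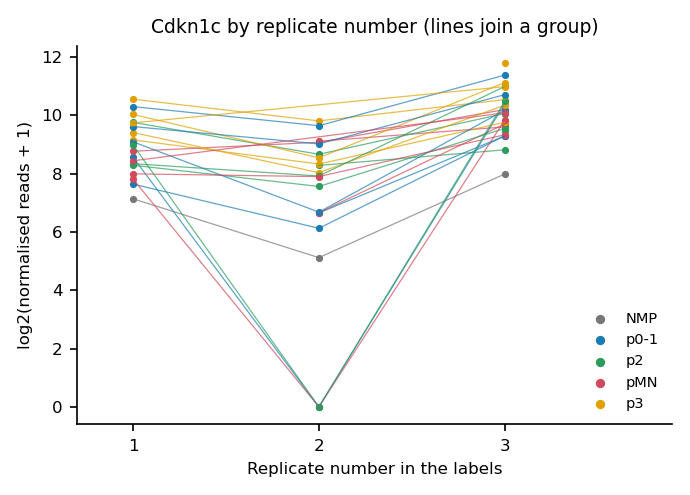
Log2(normalised reads + 1) of Cdkn1c in each library by replicate number, coloured by cell type, with lines joining libraries of one group. In 16 of the 17 groups with 3 libraries the highest value is that of replicate 3.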

How the data were processed

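RNA of fixed, sorted cells was made into full-length cDNA libraries (SMART-Seq HT, Nextera XT). The authors aligned the reads with STAR in an nf-core pipeline to mm10, counted them per refGene gene with featureCounts while ignoring duplicates, and removed libraries that failed quality control. Ignoring duplicates lowers the counts of short, abundant genes most. The deposited values are a gene-level signal, read counts that the authors divided by 1 size factor per library. Of the 834400 deposited values above 0, 100.0% were whole multiples of what 1 read is worth (within 0.01 reads), so the counts were recovered for DESeq2 and edgeR as alternatives. The deposited annotation gave positions and transcript lengths as other values. The table held 25239 genes, and no column was left out.

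Groups were taken from the day, the SAG concentration and the sorted cell type in the labels. Differences were tested with limma 3.58.1 in R 4.3.3, with an intensity trend, on log2(value + 1). Genes with a mean under 10 were left out, which kept 13964. One model with 25 group means was fitted to all 65 libraries (residual degrees of freedom 40), and comparisons averaged group means. Every adjusted p comes from this model by Benjamini-Hochberg over all genes tested. The p-values measure the spread between libraries of a group, which the labels describe as separate differentiations of 1 line. The study sorted several cell types from the same dish, so libraries of different groups can share a differentiation. The model takes all 65 libraries as independent. A log2 change on this scale understates changes of low genes, though 1 library at 0 can make it exceed the ratio of the means, as for Gadd45g. No expression test is described in the study's methods, and its thresholds for accessibility (adjusted p below 0.01 and more than 2-fold) were partly taken over. Its further minimum, a mean above 100, was not required here and was run as an alternative. The steps were tested on simulated counts. Alternatives were a pseudocount of 10, no filter, a mean of at least 100, quantile normalisation, edgeR 4.0.16, DESeq2 1.42.0, only the groups compared, a replicate block, the number of genes detected as a covariate, an adjusted p below 0.05 without a fold, and leaving out each library.

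The 60 genes and the lists of other cell cycle genes and markers were chosen with earlier results of these data known. Values were given for every called gene of the 60, for 10 regulators in the comparison of days 6 and 4 whatever their test, and, where a comparison of cell types or SAG called none, for the 3 with the lowest p. Of the other lists at most 3 genes per list and direction were named. One gene of the marker lists is not reported here.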

Additional observations from a re-analysis of the deposited data

Results flagged for a closer look

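For 5 of the 60 genes the change from day 4 to day 6 in p3 differed from that in the other cell types by a test of the difference itself (limma, adjusted over all genes). The log2 difference of the changes was 5.27 for E2f1 (adjusted p 2.36e-11), 5.67 for E2f2 (adjusted p 0.000559), 2.48 for Mcm5 (adjusted p 1.27e-05), 4.03 for Cdc25c (adjusted p 6.34e-09) and 3.95 for Gadd45g (adjusted p 5.66e-09). All 5 rested on the single day 4 library of p3 at 100 nM, the one with 9718 genes detected, in which E2f1, E2f2 and Gadd45g had 0 reads, Cdc25c 1 read and Mcm5 259 normalised reads. Without it the differences were 0.66 for E2f1 (adjusted p 0.927), 3.82 for E2f2 (adjusted p 0.357), 1.10 for Mcm5 (adjusted p 0.59), -0.70 for Cdc25c (adjusted p 0.927) and -0.16 for Gadd45g (adjusted p 0.992). With so few libraries per group, no search for outlying samples within groups was run.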

How the results depend on the processing

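Of the 43 called values of single genes, 18 kept their direction and call under every setting, among them Gadd45g and Cdc25b from day 4 to days 5 and 6, Ccnd2 and Cdkn1a from day 3 to day 4, Cdk6 and Gadd45g between p3 and pMN, and Mycn between pMN and p0-1. Counts of the 60 genes called moved by over 1.5 times in the following cases. With an adjusted p below 0.05 and no fold minimum they were 14 for day 4 against 3, 11 for day 5 against 4, 8 for day 6 against 5, 21 for day 6 against 4, 8 for p3 against p2, 5 for p3 against p0-1, 2 for p2 against p0-1 and 1 for SAG in p0-1. For day 6 against 4 within a type they were then 5 in p2, 5 in pMN and 12 in p3, and 1 for the difference of p0-1 from the other types. Of all genes 0.0286% to 22.3% were called in these 12 cases, 22.3% for day 6 against 4, 12.3% for day 5 against 4 and 6.5% for day 4 against 3. With only the groups compared in the model they were 0 for p3 against p2, 0 for p3 against p0-1, 1 for day 6 against 4 in p0-1, 1 in pMN and 3 in p3 (0.551% to 3.17% of all genes). With edgeR they were 1 for p3 against p2, 0 for p3 against p0-1 and 1 for the difference of pMN from the other types (0.0286% to 0.931% of all genes). With DESeq2 they were 8 for day 5 against 4, 2 for p3 against p0-1, 1 for pMN against p2, 1 for SAG in pMN, 3 and 12 for day 6 against 4 in p2 and p3, and 2 each for the differences of p0-1, p2 and pMN from the other types. There 3.17% to 24.7% of all genes were called, 16.6% for day 5 against 4 and 24.7% for day 6 against 4 in p3. The causes were not tested. Without the 4 libraries with the fewest genes detected, chosen after seeing the data, the counts were 2 for day 5 against 4, 2 for day 6 against 4 (Gadd45g 3.75, Cdc25b 2.01), 2 for day 6 against 4 in p3 and 0 for the difference of p3, beside 2.59%, 7.19%, 1.25% and 0.0358% of all genes. Leaving out each library in turn gave ranges of 0 to 6 for the difference of p3 from the other types, 0 to 1 for that of pMN, 4 to 7 for day 4 against 3, 2 to 5 for day 5 against 4, 3 to 7 for day 6 against 4, 0 to 1 for p3 against p0-1, 0 to 2 for p3 against p2, and 2 to 3 for pMN against p0-1. For day 6 against 4 within a type the ranges were 1 to 2 in p0-1, 1 to 3 in p2, 2 to 5 in pMN and 2 to 8 in p3. The lowest counts for day 5 against 4, day 6 against 4, day 6 against 4 in p3 and the difference of p3 came without the day 4 library of p3 at 100 nM. That for day 4 against 3 came without replicate 1 of the NMPs, and that for p3 against p2 without the day 6 p3 library of replicate 3 at 500 nM.

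For Ccnd1, day 6 versus day 4, the sign turned under the replicate block (0.0219), edgeR (0.0684) and DESeq2 (0.10), with a range of -0.34 to 0.16 without single libraries. That of Cdkn1c ranged from -0.20 to 0.45 without single libraries. Cdc25c turned in p3 from day 4 to day 6 without the day 4 library of p3 at 100 nM (-0.27, in a range up to 4.81) and without the 4 libraries (-0.26). So did the difference of its change in p3 from the other types (-0.70, in a range up to 4.38, and -0.66) and that of Gadd45g (-0.16, in a range up to 4.14, and -0.26). Replicate numbers were not taken as pairs. The deviations of same-numbered libraries from their group means had a median correlation of 0.016 across genes and exceeded 0.1 in 0.789% of pairs, although single genes such as Cdkn1c differed by number. Between libraries of the same day these values were 0.033 and 1.61%, and the median between different numbers was -0.019. Libraries from the same dish were not examined separately. The replicate block gave 5 called genes for day 4 against 3, 6 for day 5 against 4, 7 for day 6 against 4 and 8 for day 6 against 4 in p3. Of all genes 3.65%, 4.27%, 8.66% and 8.24% were called in these comparisons. Depth was similar between libraries, and the number of genes detected limits what can be said of genes at 0.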

Other observations

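Cell cycle genes outside the 60 were taken from 4 lists, of which 42 replication genes, 57 genes of G2 and mitosis, 26 regulators and checkpoint genes and 12 growth arrest genes were tested. From day 3 to day 4 none of them was called with limma, against 3.49% of all genes. From day 4 to day 6 (8.87% of all genes called), 1 of 42 replication genes was called, 2 of 57 G2 and mitosis genes, 3 of 26 regulators and 2 of 12 growth arrest genes. Plk3, a stress-responsive polo-like kinase gene, showed the largest of these changes. It held 0.800 to 848 normalised reads on day 4 (median 187) and 438 to 5251 on day 6 (median 1855), with overlap, and a log2 change of 3.73 (adjusted p 8.82e-12, limma). Plk3 was called in p0-1 (3.04), p2 (3.27) and pMN (5.81), and on days 5 and 6 it was higher in pMN than in p0-1 by 2.28 (adjusted p 0.000413), the same direction between these types as Gadd45g. Both Plk3 and Gadd45a share exon sequence with a gene on the other strand, from which their reads cannot be told apart.

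Tfdp2, which encodes a dimerisation partner of E2F factors, held 83.2 to 941 normalised reads on day 4 and 559 to 4321 on day 6, a log2 change of 2.24 (adjusted p 1.72e-11), and was lower in p3 than in p2 by 1.25 on the log2 scale (adjusted p 0.00202). Ccng2, a cyclin gene linked to arrest, held 20.0 to 500.1 and 182 to 1398, a log2 change of 2.21 (adjusted p 6.55e-06). Depdc1a, a gene of mitosis, went the other way, from 198 to 1914 to 0 to 907 (log2 change -2.07, adjusted p 0.0032). Without the day 4 library of p3 at 100 nM these 4 genes stayed called, at 3.80 for Plk3, 2.12 for Tfdp2, 1.92 for Ccng2 and -2.07 for Depdc1a. Among the others called with that library included were Gins3 (1.32), Fbxo5 (1.21), and Gadd45a (-1.16), a paralog of Gadd45g with the opposite sign. In p2, Depdc1a was lower at 100 than at 10 nM SAG by 4.73 on the log2 scale (adjusted p 0.00858), with 0 to 385 and 476 to 1438 normalised reads.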
